A study of Caenorhabditis elegans with 2 samples.

Results

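Between the protein-coding genes of the autosomes, away from annotated starts, lay 488 of the 2000 strongest ChIP regions of tagged DAF-12 in Caenorhabditis elegans larvae. The regions came from chromatin immunoprecipitation and sequencing (ChIP-seq) of whole animals of strain OP222 at the L3 larval stage. The labels give the sex of the animals as males and females pooled. The strain carries the eGFP-DAF-12 fusion as the integrated transgene wgIs222 in an unc-119(ed3) III background, and both samples share this genotype. The labels name eGFP-DAF-12 as the target and give the antibody only as daf-12. The 2 samples form 1 group and are named biological replicates 1 and 2, whole animals were used, and no condition or genotype was compared, so binding cannot be assigned to a tissue. The authors listed 30000 regions for each replicate and 30000 for the replicates pooled, each with a signal value whose scale is not given, and the strongest 150 of the pooled list also form their list of regions that passed the irreproducible discovery rate (IDR). Members were the regions among the 2000 of highest pooled signal that lie on an autosome, outside every protein-coding gene and more than 500 bp from every protein-coding transcript start, judged at the summit. Signal, rank and place therefore chose the members, and are given below as a description. The lowest members, of ranks 1989 to 1991, had a signal of 19.05, and the nearest regions left out had 19.04 at rank 2001 and 19.03 at ranks 2003 and 2006. The members closest to a start lay 512, 514 and 515 bp away, and the nearest regions left out for this reason lay 494, 492 and 490 bp away.

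DAF-12 is a nuclear hormone receptor that binds the steroid dafachronic acid. With its hormone it promotes reproductive growth and the timing of larval cell fates, in part through the let-7 family microRNA genes mir-48, mir-241 and mir-84, and without it the receptor acts with the corepressor DIN-1 to specify the dauer larva. Nuclear receptors bind short hexamers, often as pairs, at promoters and at sites further from genes. In the compact worm genome most genes lie close together, and sequence between them also holds genes for microRNAs, spliced leader RNAs, small nuclear and nucleolar RNAs and tRNAs.

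The summit sequences of 9 strong members show what these places look like. Each is the 101 bp centred on the summit, on the plus strand of WBcel235 (the assembly that ce11 names, read from RefSeq), and capitals mark every match, on either strand, to AGTACA, to AGTGCA, to AGTTCA, to AGTGTG or to AGTGCG, to the related receptor hexamers AGGACA or else AGGTCA, and to the GA-repeat pentamer GAGAG. The highest member, of rank 2 in the pooled list, lies upstream of Y37D8A.4 at chrIII:12841522-12841622. The next 4 are shown because 2 of the AGT hexamers in each lie at most 10 bases apart. They are the member upstream of mir-241 at chrV:14366695-14366795, 2 members beside F45D3.1 at chrV:12529069-12529169 and chrV:12528346-12528446, and a member between C33D9.3 and clec-182 at chrIV:8793492-8793592. The members near nhr-88 at chrII:2974016-2974116 and near mir-52 at chrIV:14033140-14033240 are shown for their GA repeats. The last are the members on the spliced leader genes sls-2.1 at chrII:5844910-5845010 and sls-2.2 at chrII:5543638-5543738, whose windows read alike.
Y37D8A.4, rank 2: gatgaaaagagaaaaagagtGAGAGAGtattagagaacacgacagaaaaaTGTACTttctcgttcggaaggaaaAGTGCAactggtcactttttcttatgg
mir-241, rank 3: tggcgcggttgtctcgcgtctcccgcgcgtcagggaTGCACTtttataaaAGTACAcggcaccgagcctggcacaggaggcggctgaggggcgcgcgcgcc
F45D3.1, rank 12: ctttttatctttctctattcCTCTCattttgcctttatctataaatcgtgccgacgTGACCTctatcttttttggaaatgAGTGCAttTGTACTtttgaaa
F45D3.1, rank 124: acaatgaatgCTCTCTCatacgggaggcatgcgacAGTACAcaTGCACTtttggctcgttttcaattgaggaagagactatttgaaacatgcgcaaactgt
C33D9.3, rank 68: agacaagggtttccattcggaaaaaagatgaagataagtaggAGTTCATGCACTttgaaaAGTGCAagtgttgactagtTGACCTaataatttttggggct
nhr-88, rank 55: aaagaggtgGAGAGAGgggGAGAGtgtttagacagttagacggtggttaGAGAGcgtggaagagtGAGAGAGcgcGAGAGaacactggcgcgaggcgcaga
mir-52, rank 51: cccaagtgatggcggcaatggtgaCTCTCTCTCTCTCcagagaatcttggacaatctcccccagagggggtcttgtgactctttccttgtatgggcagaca
sls-2.1, rank 9: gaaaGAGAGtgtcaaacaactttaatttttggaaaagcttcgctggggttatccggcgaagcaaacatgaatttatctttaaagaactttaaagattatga
sls-2.2, rank 45: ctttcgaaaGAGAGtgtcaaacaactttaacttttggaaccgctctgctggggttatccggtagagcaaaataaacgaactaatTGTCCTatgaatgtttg

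In the mir-241 window, an AGTGCA on the minus strand and an AGTACA on the plus strand point away from each other with 8 bases between them. The 2 members beside F45D3.1 each hold AGTGCA and AGTACA facing each other with 2 bases between, in opposite order. At C33D9.3 an AGTTCA and an AGTGCA face each other with 0 bases between, and 2 AGTGCA point apart with 6 bases between. Of the 35 members on the IDR list 5 (14.3%) held such a pair, these 4 among them, against 2 of the other 453 members (0.442%). The other of the 5, of rank 27, lies 2559 bp upstream of mir-241, in the same group as the member of rank 3. The 5 windows are thus not all separate places. Regions of other classes were not split by the IDR list, so this contrast cannot be called particular to members. Over all members the share was 7 of 488 (1.43%), near the 1.35% of all 2000 strongest regions, so pairs were not particular to members. Of all 817362 windows of this length on the autosomes, 0.454% held a pair. The pairs were looked for after these windows had been read, so the shares are a description and were not tested.

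Single motifs were found as follows. GAGAG was present in 24.4% of member windows, in 23.8% of promoter windows and in 12.5% of all autosomal windows, and among members in 60.0% of those on the IDR list and 21.6% of the others. AGTGCA was present in 6.97% of members against 3.29% of autosomal windows, AGTACA in 7.58% against 3.95% and AGTGTG in 4.1% against 3.36%. AGTACA was most frequent in members on the IDR list, at 22.9%. For these motifs too, other classes were not split by the IDR list, so the contrasts by that list cannot be called particular to members. Of the other motifs searched, AGTGCG was present in 2.46% of members against 1.44% of autosomal windows, AGTTCA in 5.74% against 6.63%, AGGTCA in 2.66% against 2.37%, AGGACA in 3.69% against 2.46% and the GATA-type site TTATCA in 10% against 9.22%. Any of the AGT or AGG hexamers searched was present in 26.6% of members, 26.5% of all 2000 strongest regions and 28.6% of autosomal promoter regions. As a set, these hexamers were thus not particular to members. Singly, AGTGCA (4.76%) and AGTACA (3.97%) were less frequent in promoter regions than in members, and AGTGTG (5.75%) and AGTGCG (5.95%) more frequent. In intergenic regions of X the shares were 7.29% for AGTGCA, 3.65% for AGTACA, 4.17% for AGTGTG and 3.12% for AGTGCG. In autosomal regions inside genes they were 5.34%, 5.92%, 5.73% and 1.53%. These differences between classes were not tested. A letter match is not a bound site. Base composition differed along with these shares: the median GC content was 44.6% in members on the IDR list and 33.7% in the others, and the mean share of bases marked as repeats in the RefSeq sequence was 14% in members on the list and 32.7% in the others. The part of base composition in the motif shares was not tested.

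The strongest members were high in both replicates. For the highest member (III:12841572) the signal was 75.7 in replicate 1, 77.6 in replicate 2 and 153.9 pooled. It lies 2609 bp upstream of Y37D8A.4 and 12477 bp from Y37D8A.5 in a gap of 15085 bp. The member upstream of mir-241, at V:14366745, had 76.8 and 59.3 in the 2 replicates (135.7 pooled), with protein-coding genes no nearer than unc-39, which encodes a Six-type homeodomain protein, at 6329 bp. The sls-2.1 member, at II:5844960, had 62.5 and 45.3 (108.0 pooled), and the F45D3.1 member of rank 12, at V:12529119, 46.2 and 52.1 (98.21 pooled). In each of these 4 members, both replicates placed the region among their 18 highest.

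The next members in order of signal flank genes of varied functions. At III:4899893, between nhl-2, which encodes a TRIM-NHL protein that works with the microRNA machinery, and tag-340, the signals were 44.7 and 45.7 in replicates 1 and 2. At III:9765628, 881 bp upstream of cbp-1, which encodes the CBP/p300 histone acetyltransferase, with gcc-2 on the other side, they were 26.3 and 32.6. At III:4282138, 1914 bp from sup-26, which encodes an RNA-binding protein, with R10E4.3 on the other side, they were 22.3 and 32.5. At II:2974066, 2573 bp from the nuclear receptor gene nhr-88 and 12183 bp from srw-60, they were 27.1 and 23.7. At I:8786976, between mfb-1 and sup-17, which encodes an ADAM protease of Notch processing, they were 19.7 and 25.2. All of these regions ranked within the 145 highest of each replicate.

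Among the remaining members of the 25 highest, replicates were close in some and diverged more in others. The member of rank 73, at I:397949, lies between R119.5 and otub-2, a deubiquitinase gene, with 19.0 and 22.5 in replicates 1 and 2. The member near the insulin-like gene ins-37, at II:13834506 beside F08G2.5, had 17.5 and 21.8, and that near the nuclear receptor gene nhr-20, at III:4237899 beside F43C1.7, had 17.0 and 20.4. At C33D9.3 (IV:8793542, with clec-182, a C-type lectin gene, on the other side) replicate 1 was the higher, with 30.2 against 16.3. At lin-41, whose NHL-domain product is under let-7 control, replicate 1 was again the higher, with 22.9 against 10.9 at I:9343994, 1498 bp upstream of the gene and beside M04C9.2. Replicate 2 was the higher near znf-782 and csn-4 (12.6 and 24.0 at IV:1070571) and near T04C4.3 and fnip-2 (10.3 and 23.5 at IV:2219606). The other places in the 25 are in the groups and at the spliced leader genes described below.

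**Figure D1:**
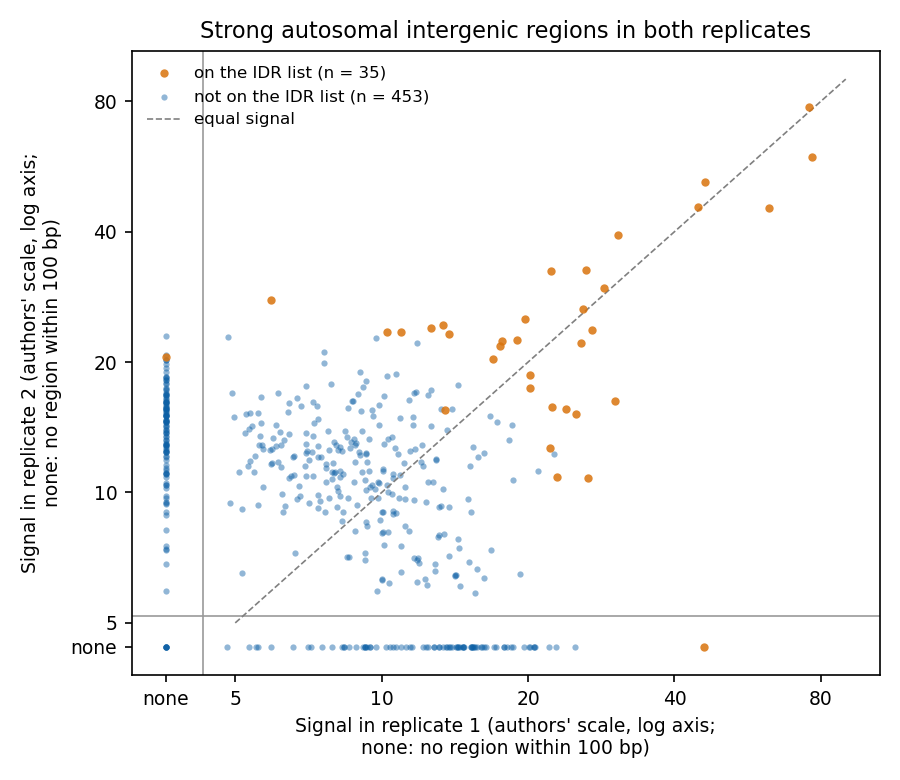
Signal of each member in replicate 1 (x axis) and replicate 2 (y axis), on the authors' scale with log axes, coloured by whether the region is on the IDR list, with regions not found in a replicate set at "none". The members of highest signal lie along the line of equal signal, up to 76.8 in replicate 1 and 77.6 in replicate 2, while the bulk forms a cloud with no upward slope.

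Replicate agreement was found mostly at the top of the ranking. A region of both replicates lay within 100 bp of the pooled summit for 293 members (60.0%, exact 95% interval 55.5 to 64.4), of replicate 1 only for 82, of replicate 2 only for 107, and of neither for 6. These lists are long: 5.8% of autosomal bases lie within 100 bp of a summit of replicate 1 and 5.79% within 100 bp of one of replicate 2. Autosomal intergenic regions below rank 2000 had a region in both for 11.1%. A stricter count asked for a region among the 2000 highest of both replicates, and 46 members (9.43%, exact 95% interval 6.98 to 12.4) had one, against 10.6% of all 2000 strongest regions. This share is near that of the strongest regions as a whole. By pooled rank it was 27 of 35 members in ranks 1 to 150, 16 of 82 in ranks 151 to 500, 3 of 113 in ranks 501 to 1000 and 0 of 258 in ranks 1001 to 2000. The ranking itself sets much of this order. The signals of the replicates added up to a median of 0.961 of the pooled signal, and the region of rank 2000 had 11.2 in replicate 1 and 12.7 in replicate 2, 23.8 in sum, which is above the pooled signal of every member ranked over 1000.

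**Figure D2:**
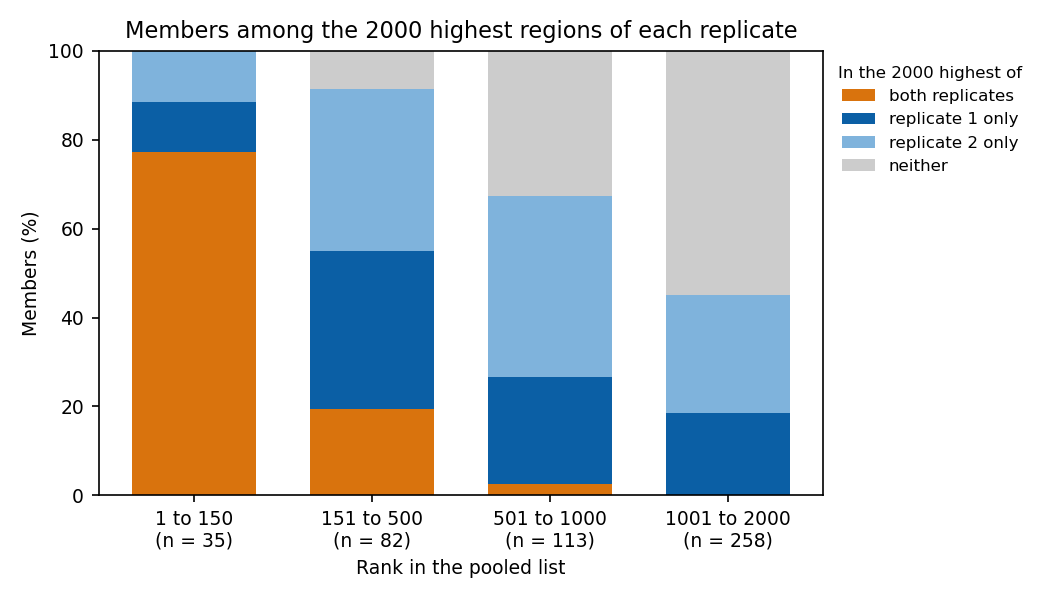
Percentage of members, by rank in the pooled list (x axis), that were among the 2000 highest regions of both replicates, of 1 replicate or of neither. The share in both is 77.1% in ranks 1 to 150 and 0.0% in ranks 1001 to 2000.

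Over the members with a region in the given replicate, signals ran from 4.8 to 76.8 in replicate 1 (median 10.1) and from 5.87 to 77.6 in replicate 2 (median 12.5). On the log2 scale, replicate 1 over replicate 2 had a median of -0.34 with an SD of 0.71, and 59 members differed by more than 2-fold, 13 with the higher signal in replicate 1 and 46 in replicate 2. Across these members Spearman's rho of the signals was 0.011, and over the 33 on the IDR list 0.365. Both describe regions of the same 2 libraries, and the selection on pooled signal bears on them. The extremes show how far a member can rest on 1 replicate, and were picked for it. The member 2446 bp from egl-10 had 4.84 in replicate 1 and 22.8 in replicate 2, and that 2035 bp upstream of hif-1, the hypoxia-inducible factor gene, had 5.92 and 27.9. The member of rank 605, 2936 bp from mtrr-1, went the other way, with 19.2 and 6.5. A member of the IDR list 1637 bp from egl-9, the prolyl hydroxylase gene that acts on HIF-1, had 20.5 in replicate 2 and no region of replicate 1.

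The share of regions among the 2000 highest of both replicates was compared with other classes of the 2000 strongest regions, which like the members were chosen by their pooled signal. It was 9.43% of members and 14.3% of 504 autosomal promoter regions (within 500 bp of a start), an odds ratio of 0.624 (Fisher's exact test, two-sided, p = 0.0187, adjusted p = 0.0843 over 9 tests). Against 192 intergenic regions of X, of which 16.7% were in both, the odds ratio was 0.52 (Fisher's exact p = 0.0107, adjusted p = 0.0843). Against 524 autosomal regions inside genes and more than 500 bp from a start, of which 7.25% were in both, it was 1.33 (Fisher's exact adjusted p = 0.62). None of the 3 differences passed 0.05 after adjustment. The test treats regions as independent although some lie close together. Presence in both sets follows largely from the pooled signal, as described above, and the pooled signal was not the same in each class: its median was 21.41 in members, 21.93 in promoter regions and 22.03 in intergenic regions of X. Among the 1000 strongest regions 46 of 230 members and 72 of 273 promoter regions were in both. The odds ratio there was 0.698 (Fisher's exact adjusted p = 0.434). With the regions of replicate 1 alone it was 0.534 against promoter regions (Fisher's exact adjusted p = 0.0242). Outside genes of every biotype except piRNA it was 0.526 against promoter regions and 0.464 against X (Fisher's exact adjusted p = 0.0235 each). No other setting passed 0.05 for this share. No difference between the classes is drawn from these shares.

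**Figure D3:**
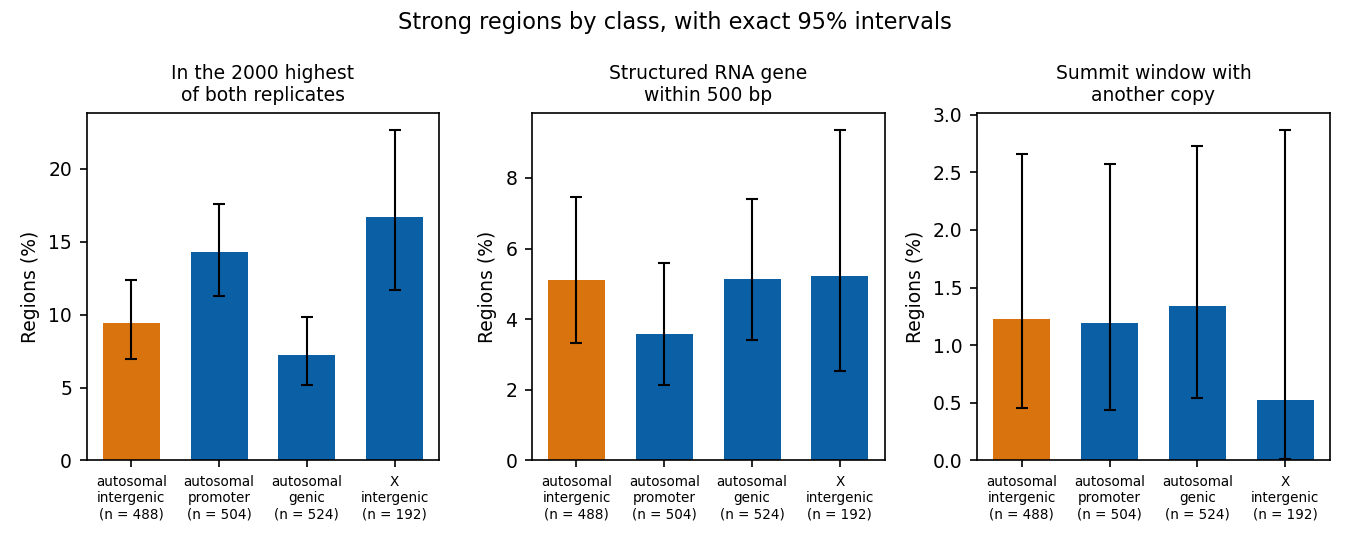
Percentage of autosomal intergenic members and of 3 other classes of strong regions that were in the 2000 highest of both replicates, had a structured RNA gene within 500 bp, or had another copy of their summit window, with exact 95% intervals over regions as error bars. For each measure the interval of the members overlaps those of the other classes.

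Distances to protein-coding genes are given as a description, since the rule sets the shortest. The median distance from a member to the nearest start was 2130 bp (quartiles 1082 and 3818 bp), 253 members (51.8%) lay more than 2000 bp from any start, 73 (15%) more than 5000 bp and 14 (2.87%) more than 10 kb. The farthest, at IV:14594361, lies 13322 bp from irld-18 and 22242 bp from dmd-6, a gene of the doublesex domain family, with 18.6 in replicate 1 and 14.3 in replicate 2. Distance to the nearest edge of a gene, whether start or end, had a median of 1364 bp. The shortest, 6 bp, was past the ends of clec-1 and B0228.1, since the rule limits only the distance to starts. For 256 members (52.5%) the nearest edge was that of a gene's start and for 232 (47.5%) that of a gene's end. The nearest start lay downstream of 352 members (72.1%), which are thus upstream of that gene.

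Gaps that held members were long, with a median of 5884 bp and a range of 92 to 46163 bp, against a median of 818 bp over all 14697 gaps between autosomal protein-coding genes. A rule on distance from starts favours long gaps, so no test is given. Of the members, 272 (55.7%) lay between genes on the same strand, 172 (35.2%) between genes that diverge from the gap and 44 (9.02%) between genes that converge on it. Of the bases in all gaps, 54.4%, 33.8% and 11.7% are of these 3 kinds. These shares include bases within 500 bp of a start, where the rule allows no member. The bases open to members were not counted by kind, so no statement on the arrangement of the flanking genes is drawn from these shares. Members farther than 5000 bp from a start reached the top 2000 of each replicate in 11 of 73 cases (15.1%) and nearer members in 35 of 415 (8.43%). The 11 include neighbours, such as the members of ranks 51 and 120 near mir-52, 212 bp apart. Presence in both sets follows largely from the pooled signal, as described above, so no difference by distance is drawn from these shares.

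**Figure D4:**
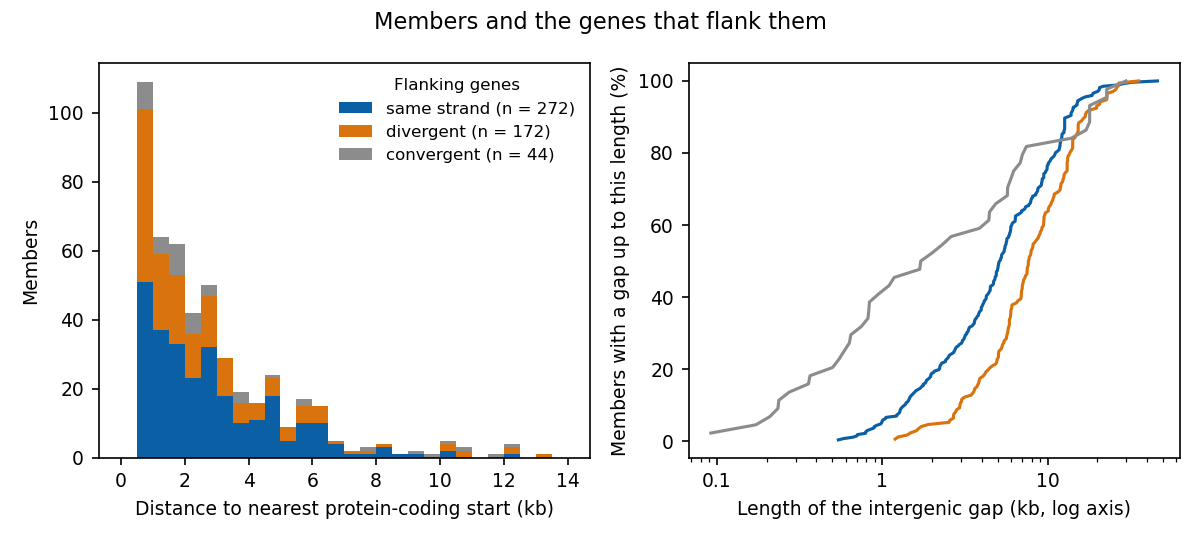
Left, number of members by distance from the summit to the nearest protein-coding start (kb), stacked by the arrangement of the flanking genes; right, percentage of members with an intergenic gap up to a given length (kb, log axis). Counts fall off from the limit of the rule at 500 bp, and the median gap is 7694 bp between divergent, 5162 bp between same-strand and 1858 bp between convergent genes.

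By chromosome, V held 132 members (27.0%, with 25.3% of autosomal length), IV 123 (25.2%, 21.2%), II 82 (16.8%, 18.5%), III 81 (16.6%, 16.7%) and I 70 (14.3%, 18.3%). On the IDR list were 35 members (7.17%), against 7.5% of the 2000 strongest regions, and they make up 23.3% of that list. Pooled signals of all members ran from 19.05 to 153.9 with a median of 21.41, so most lie close above the limit.

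Structured RNA genes (tRNA, rRNA, small nuclear, small nucleolar and microRNA genes) lay within 500 bp of 25 members (5.12%, exact 95% interval 3.34 to 7.47), against 4.45% of all 2000 strongest regions. Promoter regions had one in 3.57% (odds ratio 1.46, Fisher's exact adjusted p = 0.62), regions inside genes in 5.15% (0.994, adjusted p = 1.0) and intergenic regions of X in 5.21% (0.983, adjusted p = 1.0). As a class, members were thus not shown to be nearer to such genes. They were 10 members near small nucleolar, 7 near small nuclear, 5 near microRNA, 4 near tRNA and 0 near rRNA genes, with 1 member near both a small nucleolar and a tRNA gene, and 4 of the 25 were on the IDR list.

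Those 4 were the mir-241 member and 3 members at genes for the SL2 spliced leader RNA, a short RNA whose leader is spliced onto messages of downstream genes in operons. The pooled summits lay within sls-2.1 and sls-2.2, 96 and 91 bp from the 5′ ends of these genes of about 110 bp, which is near their 3′ ends. At sls-2.1 (II:5844865 to 5844974) the signals were those given above. At sls-2.2 (II:5543598 to 5543707) replicate 1 had 28.6 and replicate 2 had 29.6, with their summits at 5543760 and 5543770, past the end of the gene, with sls-2.3 also within 500 bp, and with C17C3.24 and ins-13, an insulin-like gene, as flanking coding genes. At sls-2.4 on I, between egg-5 and R12E2.11, the pooled summit lay 42 bp past the gene with 46.1 in replicate 1, its rank 19. Replicate 2 had no region within 100 bp of that summit, but one of 20.6 on the other side of the gene. The 3 genes are 90.9 to 96.4% identical in pairs, so reads could be shared between them, and how the authors placed such reads is not given in the sources used here.

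All genes of this kind were then looked up, after these values had been seen. Of 19 sls-2 genes, 15 had a region of the pooled list within 500 bp, 6 had one of the 2000 strongest, 5 one on the IDR list and 4 a member. In these counts sls-2.2 and sls-2.3 share the same region, of rank 45, and sls-2.19 is annotated as a pseudogene. The same shares were not counted for other genes, so no enrichment is drawn from them. The strong regions at sls-2.8 (rank 78, 20.6 and 17.0 in replicates 1 and 2) and sls-2.6 (rank 582, 11.3 and 8.20) belong to other classes. Of 12 sls-1 genes, which make the SL1 leader and lie in the tandem 5S cluster on V, 0 had a region in any of the 3 lists. Mapping in that repeated cluster was not tested here.

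The microRNA genes near members were mir-241, mir-48, mir-52, mir-80 and mir-2211. The mir-48 member (rank 900, inside the gene) had 20.6 in replicate 1, its rank 122, and no region of replicate 2. The members 233 bp downstream of mir-52 (rank 662), 202 bp downstream of mir-80 (rank 481) and 499 bp upstream of mir-2211 (rank 382) likewise had a region of replicate 1 (10.7, 7.14 and 15.3) and none of replicate 2. Of the 5, only the mir-241 member was thus found in both replicates. Among small nuclear RNA genes beyond the spliced leaders, C52E4.8, between snr-4 and rpt-1, had 17.2 and 14.6 in replicates 1 and 2, and F08G2.10 had 8.71 and 16.2. Among small nucleolar RNA genes, T02E1.9 had 11.7 and 17.0, M7.15 had 21.0 and 11.2, and T19B4.8 had 12.8 in replicate 1 alone. By the best pooled signal of each kind with a member near, tRNA genes were lowest, at 25.01 for B0228.t1, against 29.6 for small nucleolar RNA genes.

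Other noncoding genes were more frequent neighbours. Genes annotated only as ncRNA lay within 500 bp of 83 members (17.0%, against 13.8% of all 2000 strongest), pseudogenes of 36 (7.38%, against 2.45%) and lincRNA genes of 10 (2.05%, against 0.7%). The summit was inside a pseudogene in 21 cases and inside a lincRNA gene in 7, which a rule that keeps members out of protein-coding genes favours in this class, so these shares are not set against the other classes by a test. Within 500 bp of piRNA genes lay 52 members (10.7%, against 4.95% of all 2000 strongest regions), and 49 of these were on IV, the chromosome of the large piRNA clusters.

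The grouping of members along the chromosomes is given as a description. With summits at most 10 kb apart counted together, 127 members (26%) formed 52 groups, and 361 members stood alone. Of the groups, 43 held 2 members, 4 held 3, 3 held 4, 1 held 5 and 1 held 12. Members of a group are not independent, so no interval is given for this share. The median distance to the nearest other member was 46188 bp. Counting any of the 2000 strongest regions as a neighbour, 203 members (41.6%) had one within 10 kb, and the median distance was 12376 bp. The grouped share was not counted in other classes, so grouping cannot be called particular to members. Of the 35 members on the IDR list 17 were grouped, and 18 grouped members (14.2%) were in the 2000 highest of both replicates, against 7.76% of lone ones. The group of 12 alone held 6 of these 17 and 6 of these 18. Median pooled signals were 21.62 in grouped and 21.28 in lone members. Members also occupied gaps together: 430 gaps held members, and 41 of them held more than 1.

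The group of 12, on V from 12528396 to 12554230, runs from F45D3.1 past F45D3.2, F45D3.3 and F45D3.4 to sel-1, which encodes a protein of endoplasmic reticulum quality control. No other class of strong region interrupts it, and 6 of its members were on the IDR list. The 12685-bp gap between F45D3.1 and F45D3.2 alone holds 9, the most of any gap. Their pooled signals ran from 20.67 to 98.21. In 6 of the 12, both replicates had a region in their 2000 highest, and in 3 replicate 1 had none within 100 bp.

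The group of 5, on V from 14364504 to 14369789, spans mir-48 (14364412 to 14364509) and mir-241 (14366188 to 14366283), both on the minus strand, in the gap of 14183 bp between Y49A3A.4 and unc-39. Its summits lay inside mir-48, 605 bp downstream of mir-241, and 462, 2559 and 3506 bp upstream of mir-241. The members 462 and 2559 bp upstream were in the highest regions of both replicates (76.8 and 59.3, and 30.6 and 39.3). The outermost, 3506 bp upstream, had 9.85 and 10.6, and the remaining 2 were each found in 1 replicate.

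**Figure D5:**
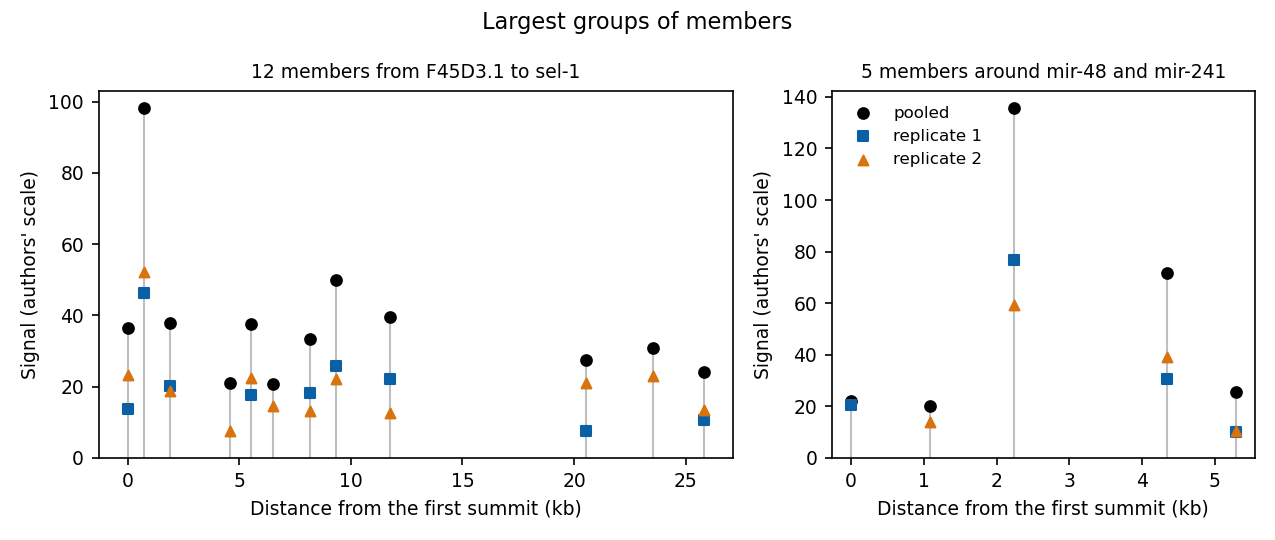
Signal (authors' scale) of the members in the largest groups against distance from the first summit of the group (kb), pooled (circles), in replicate 1 (squares) and in replicate 2 (triangles). The group of 12 has its highest member, 98.21, near its left end, and the group of 5 its highest, 135.7, in the middle; a missing square or triangle means no region of that replicate within 100 bp.

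Smaller groups varied in how many of their members were in both sets of highest regions. Near mir-52 on IV, 3 members fell within 1150 bp in a gap of 17966 bp between irld-55 and Y37A1B.7, and those 818 and 606 bp upstream of mir-52 had 25.95 and 26.6, and 20.2 and 17.4, in replicates 1 and 2. In the gap of 13137 bp between din-1, which encodes the DAF-12 corepressor, and ghi-1, 4 members had pooled signals of 21.12 to 29.01, and 1 of them was in both sets of highest regions. Groups of 4 between F54F12.1 and Y39E4B.6 on III and from str-206 to dmd-7 on V held 0 members in both. The pair between Y37D8A.4 and Y37D8A.5 lay 7847 bp apart, the second with 13.4 and 24.4, and both were on the IDR list, as was the pair between C33D9.3 and clec-182.

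Genes of pathways known for DAF-12 were looked for on either side of members. Of 15 autosomal heterochronic genes 4 (26.7%) were next to a member, namely mir-241, mir-48, nhl-2 and lin-41, which had a second member of rank 1115 past its other end. Of 25 autosomal genes of dafachronic acid and dauer signalling 7 (28%) flanked a member: din-1, the insulin receptor gene daf-2, the FOXO gene daf-16, the kinase gene akt-1, the Sno/Ski gene daf-5 and the insulin-like genes ins-6 and ins-18. The best member of each ranked 241, 512, 1378, 1317, 1331, 1052 and 1095. The daf-2 member lay 178 bp past the gene, with 13.4 and 10.2 in replicates 1 and 2, and the best din-1 member had 11.8 and 17.1. Of 16 genes for Wnt signalling and distal tip cell migration 2 (12.5%) flanked one, the Frizzled gene mom-5 (17.4, in replicate 2 only) and the β-catenin gene wrm-1 (12.8, in replicate 1 only), and of 6 pharyngeal genes 0 did. Among all 17242 autosomal protein-coding genes 833 (4.83%) flanked a member. That share covers protein-coding genes only, whatever the distance. The microRNA genes mir-241 and mir-48 were instead counted for a member 462 bp away and a member inside the gene. Earlier results of these data were known when the lists were drawn up, and genes beside long gaps flank members more easily, so these counts support no statement about the pathways.

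Another copy of the summit window elsewhere in the genome, at 90% identity or more, was found for 6 members (1.23%, exact 95% interval 0.453 to 2.66), against 1.05% of all 2000 strongest regions. The shares were 1.19% in promoter regions, 1.34% in regions inside genes and 0.521% in intergenic regions of X (odds ratios 1.03, 0.919 and 2.38, Fisher's exact adjusted p = 1.0 each). Only 1 of the 6 was on the IDR list, the member of rank 118 at V:265255 between nhr-204 and lgc-26, with 12 further copies and signals of 25.2 and 15.2 in replicates 1 and 2. The others included the F08G2.10 member (19 copies) and one on IV at 3050701 (32 copies), a window wholly marked as repeat.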

How the data were processed

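ChIP-seq region lists of the 2 replicates and of the pooled replicates were used in ce11. The signal of each region was deposited by the authors, who made the lists from read alignments with a control alignment, per the file headers and labels. Aligner, peak caller, versions and IDR threshold are not given in the sources used here. No read counts were listed, so depth is unknown, and intervals cover counting error over regions only. Control alignments, tracks and the ce10 lists were not used.

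Regions were ranked by signal. Summits were set against Ensembl release 115 (WBcel235) genes with RefSeq symbols (99.9% of 19985 protein-coding genes matched). Replicate regions were matched within 100 bp of the pooled summit. Copies were sought with BLAST 2.17.0 (word size 11, e-value 1e-05, 90% coverage). Shares were compared by Fisher's exact test, two-sided, with SciPy 1.17.1 and Benjamini-Hochberg adjustment over 9 tests. P-values measure chance over regions, not the spread between animals. Scripts were tested on simulated data.

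Members and gene lists were chosen with earlier results of these data known. Named genes flank the 25 highest members, are the structured RNA genes in order of signal, are listed genes, or flank the largest groups. The genes egl-10, hif-1, mtrr-1, egl-9, clec-1, B0228.1, irld-18, dmd-6, nhr-204 and lgc-26, the other sls genes, and genes beyond 12 in the noncoding order were chosen once their values were known. Alternatives tried were other numbers of regions, each replicate alone, other distances, gene biotypes, merging and matching limits.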

Additional observations from a re-analysis of the deposited data

How the results depend on the processing

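No paired analysis was possible because there is 1 group. Odds ratios that never passed the test moved across 1 under some settings. For structured RNA genes they were 1.08 against regions inside genes and 1.44 against X with the 1000 strongest regions, 0.925 against promoters and 3.23 against X with the IDR list, 0.993 against promoters with starts over 1000 bp away, 0.834 against promoters outside genes of every biotype except piRNA, 1.03 against regions inside genes with summits merged, 1.03 against X within 250 bp and 1.08 against regions inside genes within 1000 bp. With 1 replicate left out they ran from 0.954 to 1.28 against promoters and from 1.22 to 1.53 against regions inside genes. For copies they were 0.793 against promoters with starts over 1000 bp away, 0.578 against promoters outside all biotypes and 2.16 against regions inside genes at 95% identity. With 1 replicate left out they ran from 0.673 to 0.865 against promoters, from 0.924 to 1.29 against regions inside genes and from 0.697 to 1.34 against X. Replicate agreement against promoters passed with regions of replicate 1 alone (0.534) and outside all biotypes (0.526, and 0.464 against X), and did not pass with those of replicate 2 alone (0.58). The median distance to a start was 1938 bp (1000 strongest), 2035 bp (IDR list), 1897 to 2013 bp (1 replicate), 2670 bp and 3570 bp (starts over 1000 and 2000 bp away). Grouped members made up 20.9% (1000 strongest), 40% (IDR list), 19.7% to 23.2% (1 replicate), 19.3% (5 kb) and 32.6% (20 kb). Members numbered 230, 35 and, with starts over 2000 bp away, 253. In 5 cases a 0 left no odds ratio. The causes were not tested, and unknown read depth limits every signal.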
